A study of Danio rerio with 12 samples.

Results

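Head osteoblasts and head chondrocytes of zebrafish were compared by where their chromatin was accessible. The comparison used 6 of the 12 ATAC-seq libraries of the series, 3 from each cell type, assigned by the sample titles. ATAC-seq marks accessible chromatin by the places where a transposase can insert sequencing adapters. All 12 libraries came from fish of wild-type background, aged 15 days post fertilisation, that carried R2col2a1a:mCherry together with entpd5a:Gal4FF;UAS:GFP. Head osteoblasts (labelled classical) were sorted as GFP-positive and mCherry-negative cells, head chondrocytes as GFP-negative and mCherry-positive cells. The series also holds 3 trunk osteoblast (non-classical) and 3 trunk chondrocyte libraries, sorted by the same gates. The peak names of the trunk chondrocyte libraries begin with interseg (intersegmental), those of the trunk osteoblast libraries with segm or seg. In this line entpd5a drives the green reporter through Gal4FF and UAS, so a cell counted as an osteoblast only if that driver was active. The red reporter is driven by the R2 element of col2a1a.

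Osteoblasts deposit and mineralise bone matrix, and chondrocytes secrete the collagen II and proteoglycan matrix of cartilage. In the vertebrate head both can arise from cranial neural crest, and they can share a skeletogenic progenitor. The transcription factors Runx2 and Sp7 are known for the osteoblast programme, and Sox9 with Sox5 and Sox6 for the chondrocyte programme. Such factors act in large part at distal regulatory elements, which are a main source of the summits that ATAC-seq calls outside promoters. The files' genome build was used without a gene annotation, so genes, promoters and the marker genes of either cell type were not analysed here, and elements are given by their GRCz11 coordinates, counted from 1.

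Each library was deposited as a list of scored summits, each the base where a called peak was highest. The 6 head lists held 345663 of the 546075 summits of the series, between 28911 and 79517 each. Each list was cut to its 28911 highest-scoring summits, the length of the shortest. A rank below is the place in such a list, with 1 the strongest. Kept summits no more than 250 bp from the next were joined, which gave 52718 regions (median width 26 bp). A region was called osteoblast-only when all 3 head osteoblast libraries and no head chondrocyte library had a kept summit in it, and chondrocyte-only in the opposite case. A region without a kept summit is not shown to be closed.

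Head osteoblast replicate 1 stood apart. Its whole list was used, down to a score of 2.22, while the lists of the other 5 libraries were cut at scores between 8.14 and 42.5. It was also the one head library that the labels describe as affected by a loss of files, as they do trunk osteoblast replicate 1 and trunk chondrocyte replicate 1. Of its regions 16.8% were held by no other library, against 6.6% and 7.4% in the other head osteoblast libraries and 5.0% to 6.2% in the head chondrocyte libraries. Counts of osteoblast-only and chondrocyte-only regions and of called differences are therefore given with and without it. Read depth is not given by the files, and which part of its weak summits is noise was not tested.

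The 2 cell types shared a core of accessible regions and each had many regions without a kept summit of the other. Of the 52718 regions, 3956 were osteoblast-only (7.5% of all regions) and 4961 were chondrocyte-only (9.41%), and 12860 (24.39%) were held by all 6 libraries. Another 1107 regions were held by 3 head osteoblast libraries and 1 head chondrocyte library, and 1606 by 1 head osteoblast library and 3 head chondrocyte libraries. A further 1304 regions were held by 1 library of each cell type and 955 by 2 of each. With the same list length and without head osteoblast replicate 1, there were 5721 osteoblast-only and 5450 chondrocyte-only regions, so the larger class changed. Both rules are less strict with 5 libraries, and with lists of 46446 summits, the shortest of those 5, the counts were 8658 osteoblast-only and 6906 chondrocyte-only regions.

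**Figure D1:**
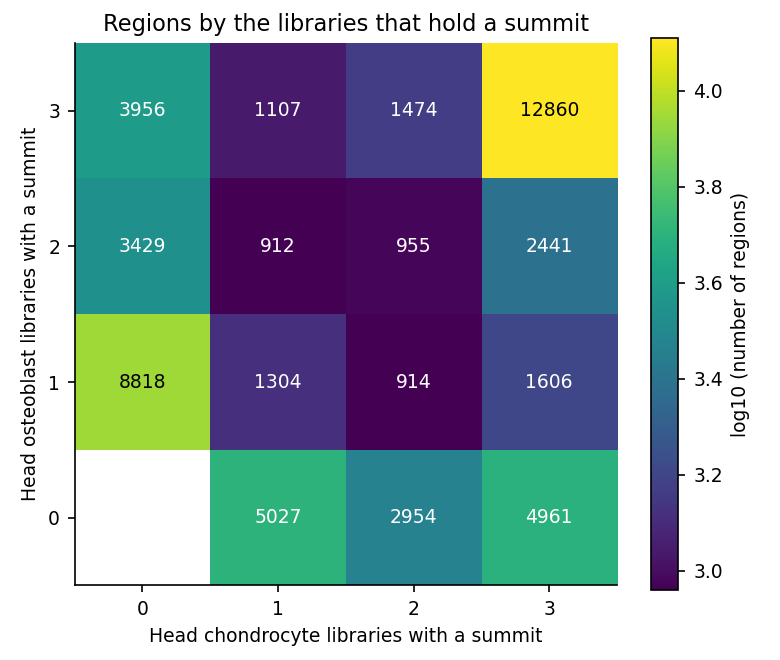
Number of regions by how many head osteoblast libraries (vertical axis) and head chondrocyte libraries (horizontal axis) held a kept summit, with colour on a log10 scale. The corner of all 6 libraries holds 12860 regions, and the corners of 1 cell type alone hold 3956 (osteoblast) and 4961 (chondrocyte).

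Libraries of one cell type resembled each other more than any pair of different cell types. The Jaccard index, the regions a pair of libraries shares divided by all regions of the pair, averaged 0.62 among head osteoblasts, 0.711 among head chondrocytes and 0.431 between the cell types. The lowest index within a cell type was 0.561, between head osteoblast replicates 1 and 3. The highest between cell types was 0.469, between head osteoblast replicate 3 and head chondrocyte replicate 3. The mean within cell types exceeded that between them by 0.234. An exact one-sided permutation test gave p = 0.1, the smallest that the 10 partitions of 6 libraries into 3 and 3 allow. Head osteoblasts were the more varied group, and replicates 2 and 3 alone had an index of 0.709, close to the 0.695 to 0.738 among head chondrocytes.

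The strongest elements were common to both cell types, and regions of 1 cell type became more frequent down the lists. Among the 928 regions held by all 3 head osteoblast libraries with a mean rank up to 1000, none was free of head chondrocyte summits and 99.78% were held by all 6 libraries. Between mean ranks 5000 and 7500, 12.05% of 2298 such regions had no head chondrocyte summit, and beyond rank 20000 it was 41.1% of 2112. Head chondrocytes followed the same course with more exclusive regions near the top. There, 2 of 894 regions (0.22%) up to rank 1000 lacked any head osteoblast summit, 15.3% did between 5000 and 7500 and 37.69% did beyond 20000. The lists have a fixed end, so a weak region of one cell type can lie just past it in the other.

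**Figure D2:**
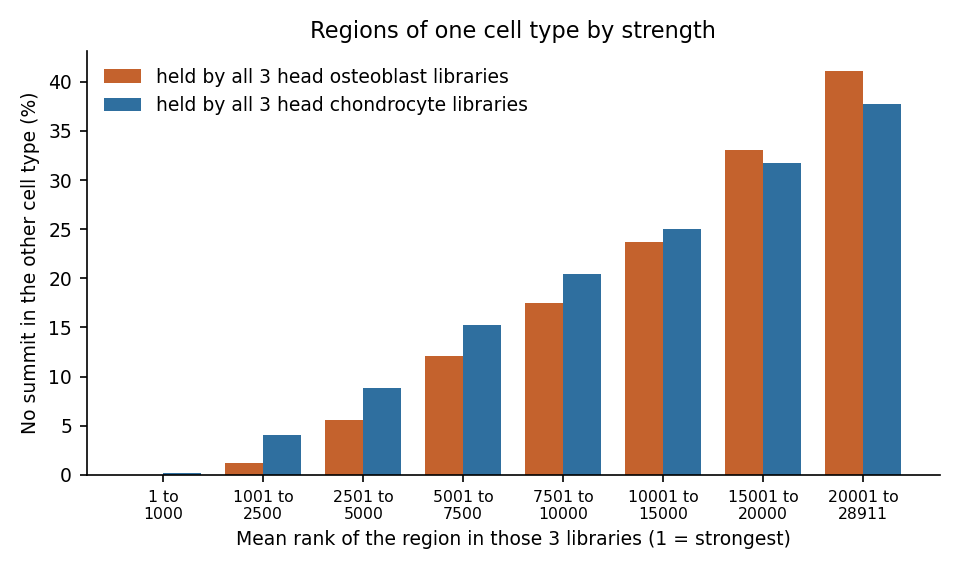
Share of regions with no kept summit in the other cell type (vertical axis, percent) by mean rank in the 3 libraries that hold the region (horizontal axis, 1 the strongest), with orange bars for regions of all 3 head osteoblast libraries and blue bars for regions of all 3 head chondrocyte libraries. Both rise to the weakest bin, where they reach 41.1% (osteoblast) and 37.69% (chondrocyte).

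The regions of 1 cell type had a median mean rank of 15665 (osteoblast-only) and 15839 (chondrocyte-only), against 8970 for the regions of all 6 libraries. Osteoblast-only regions were wider, with a median of 55 bp against 37 bp for chondrocyte-only regions, so summits of the same element lay further apart among head osteoblast libraries. Many regions of 1 cell type had weaker summits of the other below the end of the kept lists. The full lists of head chondrocytes had no summit within 250 bp of 1455 osteoblast-only regions (36.78%), and those of head osteoblasts had none near 1637 chondrocyte-only regions (33.0%). For the rest, the best rank in the other cell type had a median of 41800 for osteoblast-only and 43803 for chondrocyte-only regions. Few calls lay close to the limit. The other cell type had a summit within 1000 ranks past the end for 126 osteoblast-only (3.19%) and 144 chondrocyte-only regions (2.9%). The weakest summit of the calling cell type was within the last 1000 kept ranks in 195 osteoblast-only (4.93%) and 293 chondrocyte-only regions (5.91%). Head osteoblast replicate 1 has no summits past rank 28911. The full-list values for chondrocyte-only regions past that rank therefore rest on head osteoblast replicates 2 and 3.

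Examples on both sides of the limit show what the threshold did. The osteoblast-only region with the weakest member, on chromosome 2 from 7903070 to 7903114, ranked 27614, 28904 and 26087 in the head osteoblast libraries, and its best head chondrocyte summit ranked 35944. An osteoblast-only region on chromosome 5 from 68783154 to 68783235 ranked between 19252 and 21665 in head osteoblasts, while its best head chondrocyte summit ranked 28919, just past the 28911 kept. On the other side, the chondrocyte-only region on chromosome 5 from 42258965 to 42259018 had ranks of 18886, 17235 and 26027 in head chondrocytes, and its best head osteoblast summit ranked 28922.

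A stricter set had no summit of the other cell type within 1000 bp in its full lists, and 1225 osteoblast-only and 1375 chondrocyte-only regions met this. The osteoblast-only regions named here are from the 10 of lowest mean rank in that set. A region on chromosome 12 from 3214801 to 3214857 ranked 1333, 1973 and 2219 in head osteoblast replicates 1, 2 and 3. It was also within the strongest 8407 summits, the length of the shortest trunk list, of all 3 trunk osteoblast libraries and of no trunk chondrocyte library. The full list of trunk chondrocyte replicate 2 did hold it. The region on chromosome 21 from 23651976 to 23652060 ranked 1529, 2602 and 5179 and had the same distribution in the cut trunk lists. No full trunk chondrocyte list held it. On the same chromosome, all 3 head osteoblast libraries placed their summit on the same base, 35530231, at ranks 4980, 3591 and 1508. In the trunk, the full lists of osteoblast replicates 2 and 3 and of chondrocyte replicate 2 held this region. A region on chromosome 2 from 19005627 to 19005733 ranked 2641, 3178 and 3705 in head osteoblasts, and in the trunk it appeared only in the full list of osteoblast replicate 3.

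Several of the 10 chondrocyte-only regions chosen in the same way had summits within a few bases of each other in all 3 head chondrocyte libraries. On chromosome 10 from 37235 to 37236 the ranks were 2545, 1938 and 1802 in head chondrocyte replicates 1, 2 and 3, and the 3 summits lay on neighbouring bases. On chromosome 2 from 36613535 to 36613537 the ranks were 2532, 1348 and 3086, and on chromosome 16 from 1249358 to 1249359 they were 3650, 2098 and 4822. On chromosome 19 from 40985425 to 40985449 the ranks were 3579, 3312 and 3044. These 4 regions were within the strongest 8407 summits of all 3 trunk chondrocyte libraries and in no trunk osteoblast list, cut or full. Another region, on chromosome 14 from 49597274 to 49597298, ranked 3438, 1725 and 2431 in head chondrocytes and was absent from the cut trunk osteoblast lists, but the full lists of all 3 trunk osteoblast libraries held it.

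The trunk libraries took no part in calling these regions, and they carried the same difference. With trunk lists cut to 8407 summits, osteoblast-only head regions had a summit within 250 bp in 6.9%, 7.0% and 15.2% of cases in trunk osteoblast replicates 1, 2 and 3, against 0.3%, 0.3% and 0.9% in trunk chondrocytes. The means were 9.7% ± 4.8 for trunk osteoblasts and 0.5% ± 0.4 for trunk chondrocytes (SD, n = 3 each, difference 9.2 percentage points, exact two-sided permutation p = 0.1). Chondrocyte-only head regions had one in 1.2%, 1.1% and 0.4% of cases in trunk osteoblasts, against 20.4%, 21.1% and 14.5% in trunk chondrocytes. Here the means were 0.9% ± 0.4 for trunk osteoblasts and 18.7% ± 3.6 for trunk chondrocytes (SD, n = 3 each, difference -17.8 percentage points, exact two-sided permutation p = 0.1). The groups did not overlap in either class, and 0.1 is the smallest p that 20 assignments of 6 libraries allow.

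In the cut lists, trunk libraries that held a head region of 1 cell type were thus mostly of that cell type. Of the 3956 osteoblast-only regions, 732 had a summit in at least 1 trunk osteoblast and no trunk chondrocyte library, and 23 had the reverse. Of the 4961 chondrocyte-only regions, 1406 had a summit in at least 1 trunk chondrocyte and no trunk osteoblast library, and 44 the reverse. The largest part had none in the cut trunk lists, 80.3% of osteoblast-only and 69.7% of chondrocyte-only regions. By comparison, the regions of all 6 head libraries had a trunk summit in 52.3% ± 0.5 of cases for trunk osteoblasts and 45.9% ± 1.9 for trunk chondrocytes (SD, n = 3 each). For these regions too the trunk groups did not overlap (difference 6.4 percentage points, exact two-sided permutation p = 0.1). With full trunk lists, which range from 8407 summits in trunk chondrocyte replicate 3 to 64219 in trunk osteoblast replicate 3, the groups overlapped. The share of osteoblast-only regions was then 53.7% ± 32.3 in trunk osteoblasts, against 14.6% ± 17.6 in trunk chondrocytes (SD, n = 3 each, exact permutation p = 0.2). That of chondrocyte-only regions was 22.7% ± 21.3 against 58.7% ± 40.7 (SD, n = 3 each, exact permutation p = 0.2). Only 8.1% of osteoblast-only and 3.2% of chondrocyte-only regions had no summit in any full trunk list. Full lists of both trunk cell types had a summit in 35.1% of osteoblast-only and 48.1% of chondrocyte-only regions.

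**Figure D3:**
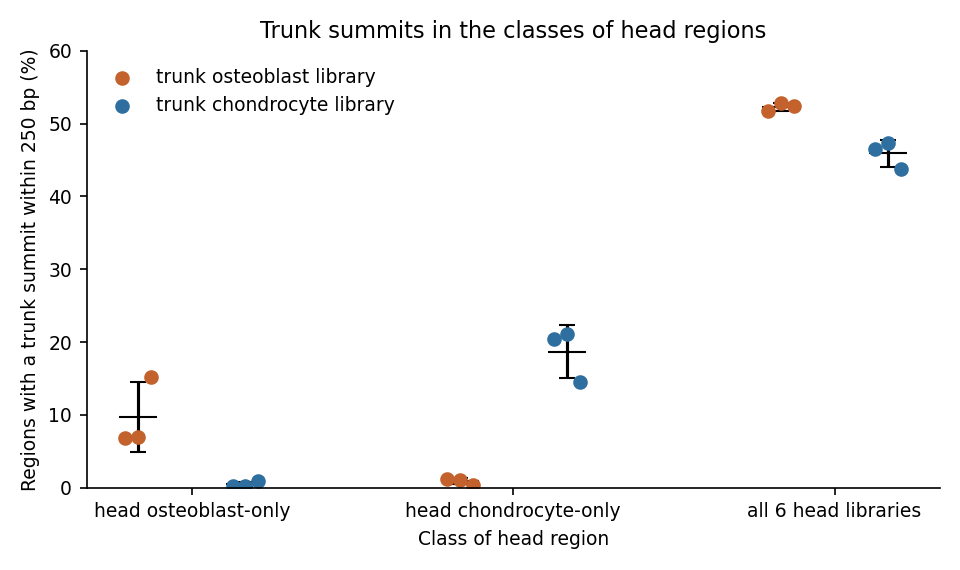
Share of head regions with a trunk summit within 250 bp (vertical axis, percent), for each of 3 trunk osteoblast (orange) and 3 trunk chondrocyte libraries (blue) cut to 8407 summits; bars are mean and SD. Osteoblast-only regions are at 6.9% to 15.2% in trunk osteoblasts and 0.3% to 0.9% in trunk chondrocytes, and chondrocyte-only regions at 0.4% to 1.2% in trunk osteoblasts and 14.5% to 21.1% in trunk chondrocytes.

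Regions accessible in both cell types differed in how high they ranked. For the 12860 regions of all 6 libraries, log2 rank was compared with limma, a positive difference meaning a place nearer the top in head osteoblasts. At a Benjamini-Hochberg adjusted p below 0.05, 2546 regions ranked higher in head osteoblasts (19.8% of those tested) and 1828 ranked higher in head chondrocytes (14.2%). The median difference of all tested regions was 0.27, so the shared regions as a whole lay nearer the top of the head osteoblast lists. With the median of each library set to the same value, which was chosen after seeing the data, limma called 1921 regions towards head osteoblasts and 2061 towards head chondrocytes. The balance between directions thus rested on the scaling. Without that centring, large differences were more frequent towards head chondrocytes, with 648 of the 1828 regions at a log2 difference of -2 or below, against 317 of the 2546 at 2 or above. Leaving out head osteoblast replicate 1 gave 14516 tested regions. Of these, 2070 were called towards head osteoblasts and 1972 towards head chondrocytes.

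Among the shared regions ranking higher in head osteoblasts, the lowest p belonged to chromosome 19, 40966182 to 40966274. It ranked 403, 255 and 435 in head osteoblast replicates 1, 2 and 3, against 10549, 14900 and 15059 in head chondrocytes. The log2 difference was 5.23 ± 0.34 (SE; limma adjusted p = 1.01e-10). It ranked 448, 531 and 226 in the trunk osteoblast libraries. In the trunk chondrocyte libraries it was within the strongest 8407 only in replicate 2, at rank 4611. This element lies on the same stretch of chromosome 19 as the chondrocyte-only region at 40985425, so accessible sites of opposite preference stood close together there.

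Other shared regions of strong osteoblast preference behaved alike in the head. Chromosome 5, 19244444 to 19244492, ranked 682, 338 and 607 in head osteoblasts, against 19245, 15803 and 11524 in head chondrocytes (log2 difference 4.87 ± 0.34, SE; limma adjusted p = 3.31e-10). Chromosome 10, 43029016 to 43029129, ranked 603, 306 and 356 in head osteoblasts and 10309, 12283 and 9610 in head chondrocytes (log2 difference 4.73 ± 0.34). A second region on that chromosome, 33091976 to 33092021, ranked 968, 1126 and 1658 in head osteoblasts and 28647, 20135 and 20234 in head chondrocytes. In these regions no head chondrocyte library came near any head osteoblast library.

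Head chondrocytes held shared regions of still larger difference, among the very strongest of their lists. Chromosome 12, 1121448 to 1121516, ranked 19766, 17687 and 28101 in head osteoblasts, against 221, 154 and 339 in head chondrocytes (log2 difference -6.57 ± 0.35, SE; limma adjusted p = 2.39e-11). In the trunk it ranked 210, 262 and 617 in chondrocyte libraries and was beyond 8407 in all 3 osteoblast libraries. On chromosome 6, the region from 4044440 to 4044671 ranked 13297, 17581 and 11919 in head osteoblasts and 126, 82 and 301 in head chondrocytes (log2 difference -6.59 ± 0.41). Another on that chromosome, 52605816 to 52605876, ranked 17067, 13306 and 10178 in head osteoblasts and 138, 199 and 203 in head chondrocytes (log2 difference -6.22 ± 0.35). In trunk osteoblasts it ranked 10316, 7303 and 19995, so replicate 2 held it within the strongest 8407, against 40, 25 and 286 in trunk chondrocytes. The region on chromosome 21 from 6545553 to 6545569 ranked 27557, 28846 and 17646 in head osteoblasts, so that 2 of its 3 summits were near the end of the lists, and 285, 350 and 633 in head chondrocytes.

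**Figure D4:**
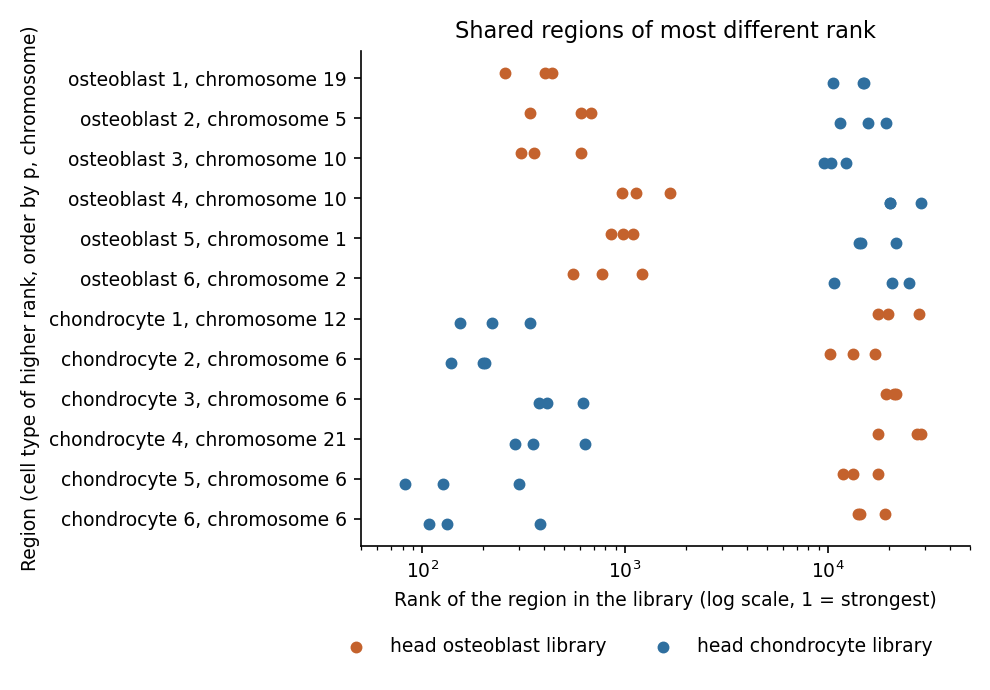
Rank in each library (horizontal axis, log scale, 1 the strongest) of the 6 shared regions of lowest p in each direction; orange points are head osteoblast and blue points head chondrocyte libraries. In every row the 3 points of one cell type lie apart from the 3 of the other, for example 403, 255 and 435 in head osteoblasts against 10549, 14900 and 15059 in head chondrocytes on chromosome 19.

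The rank differences were also seen in the trunk lists, which did not enter the fit. Regions ranking higher in head osteoblasts were among the strongest 8407 summits in 67.4%, 69.3% and 74.7% of cases in trunk osteoblast replicates 1, 2 and 3, against 37.9%, 38.9% and 37.8% in trunk chondrocytes. Those ranking higher in head chondrocytes were there in 38.1%, 39.2% and 38.3% of cases in trunk osteoblasts, against 76.0%, 78.0% and 63.8% in trunk chondrocytes. Neither set overlapped between the trunk groups, but neither did all 12860 shared regions tested. Of those, 51.7%, 52.8% and 52.4% were there in trunk osteoblasts, against 46.5%, 47.4% and 43.8% in trunk chondrocytes. Shared regions ranking higher in head chondrocytes had a chondrocyte-only region within 10 kb in 397 of 1828 cases (21.7%), against 1678 of all 12860 shared regions tested, and an osteoblast-only region in 13.9%, against 10.2%. Those ranking higher in head osteoblasts had an osteoblast-only region within 10 kb in 13.4% of cases and a chondrocyte-only region in 13.1%.

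In a small share of regions common to both cell types, the point of highest signal lay at a different place. Of the 12579 regions with 1 summit in each of the 6 libraries, limma called a shift between cell types in 182 (1.45%), with a median shift of 89 bp, at an adjusted p below 0.05. The median shift of all these regions was 11.3 bp. Between pairs of libraries the median distance of summits was 9 to 16 bp within a cell type and 9 to 19 bp between cell types. On chromosome 1 the head osteoblast summits lay at 22652027, 22652020 and 22652032, against 22651788, 22651793 and 22651789 in head chondrocytes, a shift of 236.3 ± 5.5 bp (SE; limma adjusted p = 0.000463). On chromosome 6 they lay at 3334464, 3334469 and 3334467 in head osteoblasts and at 3334663, 3334663 and 3334662 in head chondrocytes, a shift of -196 ± 4.6 bp (SE; limma adjusted p = 0.000463). On chromosome 10 all 3 head osteoblast summits were at base 38109196, against 38109325, 38109331 and 38109326 in head chondrocytes. In these 3 regions the summits of one cell type lay close together and apart from those of the other. Such a region can also be separate elements, one of each cell type, that the 250 bp chaining joined. Whether this was so was not tested. The count fell to 53 without head chondrocyte replicate 1, 88 without head chondrocyte replicate 2 and 107 without head osteoblast replicate 2. It rose to 219 without head osteoblast replicate 1.

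Within 10 kb, regions of 1 cell type had a neighbour of their own class more often than one of the opposite class. A region of all 6 libraries was a more frequent neighbour than either, but that class is larger. It held 12580 regions on the chromosomes, against 3866 osteoblast-only and 4829 chondrocyte-only regions, and the shares are not corrected for this. On the chromosomes, 20.9% of osteoblast-only regions had another osteoblast-only region within 10 kb, 12.9% had a chondrocyte-only one and 28.7% one of all 6 libraries. For chondrocyte-only regions, 10.4% had an osteoblast-only region, 18.3% another chondrocyte-only region and 29.3% one of all 6 libraries within that distance. Regions of all 6 libraries had another of their own class in 37.9% of cases, an osteoblast-only neighbour in 10.3% and a chondrocyte-only neighbour in 13.2%. Within 1 kb, neighbours of the opposite class were more frequent than those of the same class. A region of all 6 libraries lay within that distance of 67 osteoblast-only (1.7%) and 76 chondrocyte-only regions (1.6%). There, 34 osteoblast-only regions (0.9%) had another osteoblast-only region and 68 (1.8%) a chondrocyte-only one, while 58 chondrocyte-only regions (1.2%) had another of their class and 68 (1.4%) an osteoblast-only one. Some of these can be one element whose summit shifted by more than the 250 bp used for chaining.

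Runs of osteoblast-only regions, with no kept head chondrocyte summit between them, were found on several chromosomes. These runs were looked for after the values were seen. The run with the most regions lay on chromosome 20 from 49209389 to 49416383 and held 10 osteoblast-only regions. The kept lists of head osteoblast replicates 1, 2 and 3 had 11, 12 and 13 summits in it and those of head chondrocytes had 0, which the definition of a run fixes. In the full lists the head osteoblast libraries had 11, 26 and 19 summits there, and the head chondrocyte libraries had 13, 3 and 8. A run on chromosome 10 from 15128105 to 15288705 held 9 osteoblast-only regions. Its full-list summits numbered 14, 21 and 17 in head osteoblasts and 11, 3 and 2 in head chondrocytes. Of 3104 runs of osteoblast-only regions, 143 held 3 or more such regions, so most runs held fewer.

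Runs of chondrocyte-only regions held at most 6 such regions, though one on chromosome 3 spanned 439137 bp, more than the 206995 bp of the run on chromosome 20. Of 4021 such runs, 124 held 3 or more, and these had 8.6% of the chondrocyte-only regions on the chromosomes. The full list of head osteoblast replicate 1 is its kept list, so its 0 in these runs is fixed by their definition. The most compact run of 6 covered chromosome 7 from 48754706 to 48775755. Its full-list summits numbered 0, 5 and 4 in head osteoblasts and 6, 6 and 6 in head chondrocytes. In the trunk lists cut to 8407 summits it had 0 in all 3 osteoblast libraries and 5, 3 and 3 in chondrocytes. Another, on chromosome 15 from 24056360 to 24126903, had 0, 8 and 3 full-list summits in head osteoblasts and 8, 7 and 7 in head chondrocytes. In the 4 runs described, each library of the other cell type whose list went past the kept summits had weaker summits within the run.

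**Figure D5:**
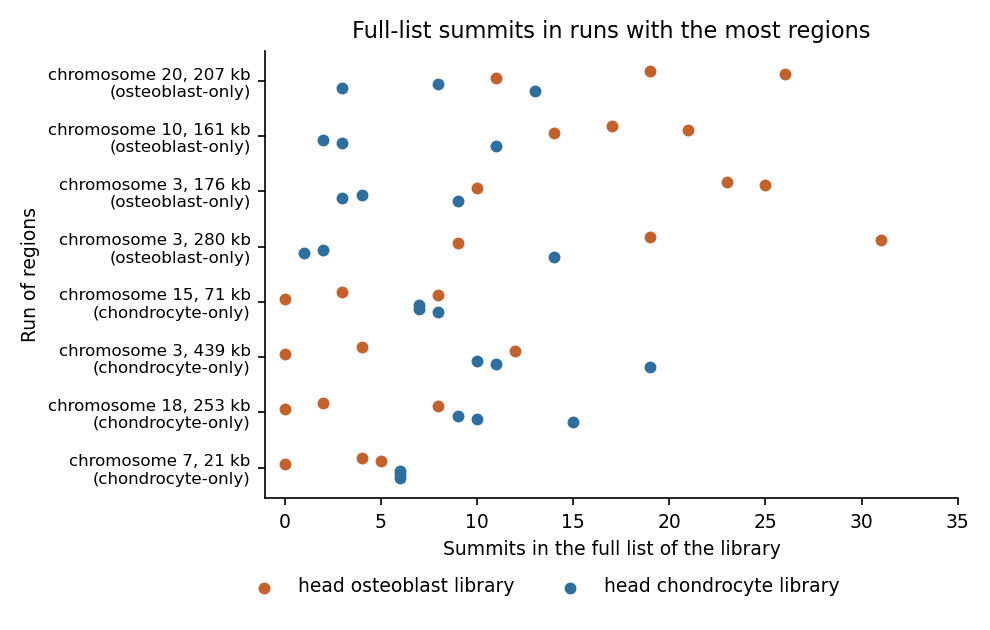
Number of summits in the full list of each head library (horizontal axis) within 4 osteoblast-only and 4 chondrocyte-only runs with the most such regions; orange points are head osteoblast and blue points head chondrocyte libraries. Full lists differ in length, which spreads the points of a cell type. On chromosome 20 the head osteoblast libraries hold 11, 26 and 19 summits and the head chondrocyte libraries 13, 3 and 8.

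Differences in regional density were tested in 100 kb windows. Windows averaging 1 or more regions over the 6 libraries were tested, 7500 in all, and limma called 544 with more regions in head osteoblasts (7.25%) and 528 with more in head chondrocytes (7.04%), at an adjusted p below 0.05. Both sets were spread over all 25 chromosomes. The windows of lowest p had identical counts in the libraries of each cell type, and limma replaces a spread of 0 by a small value. The p and SE of such windows, 105 of the 544 and 151 of the 528, cannot be interpreted and only their counts are given. Their presence also changed the calls among the other windows. Leaving out all 728 tested windows of this kind, an alternative chosen after seeing the data, left 6772. Of these, limma called 741 towards head osteoblasts and 730 towards head chondrocytes. The numbers of windows called thus depend on how windows without spread are treated.

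The windows described here were chosen as those with the most regions of 1 cell type. Their uneven counts in the same libraries therefore follow in part from that choice. A window on chromosome 7 from 65500001 to 65600000 had 12, 13 and 11 regions in head osteoblasts and 3, 2 and 1 in head chondrocytes, and 8 of them were osteoblast-only. On chromosome 2 from 23100001 to 23200000 there were 10, 12 and 11 regions in head osteoblasts and 4, 4 and 4 in head chondrocytes. The window on chromosome 17 from 45000001 to 45100000 was mixed, with 8 osteoblast-only and 3 chondrocyte-only regions, and its counts were 17, 15 and 13 in head osteoblasts and 6, 6 and 7 in head chondrocytes. The window on chromosome 7 from 48700001 to 48800000 had 4 regions in every head osteoblast library and 13 in every head chondrocyte library. On chromosome 15 from 24000001 to 24100000 the counts were 0, 0 and 1 in head osteoblasts and 8, 7 and 7 in head chondrocytes.

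Neighbouring windows were in places called together, but most called windows stood alone. Counting a lone window as a block, 44 of 494 blocks towards head osteoblasts and 33 of 492 towards head chondrocytes held 2 or more windows. Whether this exceeds what the share of windows called would give was not tested. On chromosome 3, 5 windows in a row from 55500001 to 56000000 were called higher in head osteoblasts, with 29, 27 and 22 regions in head osteoblasts and 9, 10 and 10 in head chondrocytes. On chromosome 4, 3 windows from 17000001 to 17300000 were called higher in head chondrocytes, with 9, 8 and 9 regions in head osteoblasts and 27, 25 and 26 in head chondrocytes. The window from 17000001 to 17100000 had 5 regions in every head osteoblast library and 12 in every head chondrocyte library, so its p cannot be interpreted. These blocks were singled out after their values were seen. Without head osteoblast replicate 1, limma called 448 windows towards head osteoblasts and 560 towards head chondrocytes, so the larger set changed. Leaving out head osteoblast replicate 2 lowered the windows called higher in head osteoblasts to 323. Leaving out head chondrocyte replicate 1 or 2 lowered those called higher in head chondrocytes to 309 or 306.

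Shares of regions per chromosome differed little between the cell types. Limma called 7 of 25 chromosomes with a larger share in head osteoblasts (28%) and 5 with a larger share in head chondrocytes (20%), but with full lists it called 0, with 3 at an unadjusted p below 0.05. Leaving out head osteoblast replicate 1 reversed the balance, with 5 chromosomes called towards head osteoblasts and 7 towards head chondrocytes. Chromosome 14 held 3.06% ± 0.09 of the regions of head osteoblasts and 3.26% ± 0.05 of those of head chondrocytes (SD, n = 3; log2 difference -0.09 ± 0.02, SE; limma adjusted p = 0.000172). Chromosome 20 held 4.84% ± 0.08 of those of head osteoblasts and 4.57% ± 0.05 of those of head chondrocytes (SD, n = 3; log2 difference 0.08 ± 0.02, SE; limma adjusted p = 0.000529). Osteoblast-only regions made up from 5.39% of the regions of chromosome 22 to 9.52% of those of chromosome 9. Chondrocyte-only regions made up from 7.4% of those of chromosome 22 to 11.41% of those of chromosome 4, so chromosome 22 was lowest for both classes.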

How the data were processed

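The build danRer11, which is GRCz11, and the tools MACS2, Bowtie2, fastp, deepTools, SAMtools and bedtools come from the submitters' processing notes. Their versions and settings were not given in the sources. The score deposited with each summit is on the −log10 scale of MACS2, of either p or q; the sources do not say which. It was used only to rank summits within a list. Per the labels' protocols, enzyme volume and transposition time were adjusted to cell number, so they may differ between groups. Numbers in the peak names differ from the titles for 3 of the 6 libraries; the titles were followed.

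Lists were cut, chained and compared as the report describes, in Python 3.11.15. Limma 3.58.1 (R 4.3.3) was run with trend and robust variance moderation for log2 rank and for log2(regions + 0.5) per window, with robust moderation for summit position and without either for chromosomes, always with group as the only term and with Benjamini-Hochberg adjustment across all features. A log2 difference of windows understates changes of windows with few regions. Libraries are labelled biological replicates. Limma p-values set the difference between groups against the spread between libraries, moderated across features. Permutation p-values rest on exchanging the group labels of the libraries. The procedures were tested on simulated data, with normally distributed noise for limma and well-separated sites of the same score order for region calls. Windows without spread, close neighbours and rank noise in region calls were thus not covered.

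Named features followed a rule: the 10 regions of 1 cell type of lowest mean rank in the stricter set, the 10 rank changes and the 10 windows of smallest p, the 3 windows with most such regions, and the 5 summit shifts of smallest p with 50 bp or more, each per direction, plus the chromosomes called; the text gives a part. Regions at the limit, runs and blocks of windows were added afterwards. Members and lists were chosen with earlier results of these data known. A planned assignment to genes and marker genes was not made.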

Additional observations from a re-analysis of the deposited data

How the results depend on the processing

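Every alternative left the direction of the similarity and of both trunk differences as reported. The excess of the Jaccard index ranged from 0.203 to 0.261 without single libraries, the trunk difference from 6.4 to 10.6 percentage points for osteoblast-only regions and from -19.8 to -16.5 for chondrocyte-only regions. Counts moved with list length and call rule. Osteoblast-only and chondrocyte-only regions numbered 1298 and 1839 with lists of 8407 summits, 2243 and 2951 with lists of 14455 summits, 7385 and 7915 with 2 of 3 libraries against none, and 1225 and 1375 in the stricter set; full lists gave 2523 osteoblast-only regions. Without head osteoblast replicate 1 and with lists of 46446 summits there were 8658 osteoblast-only regions. Without single libraries at the same length they ranged from 4201 to 5721 and from 5447 to 6432.

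Shared regions of higher rank in head osteoblasts and in head chondrocytes numbered 780 and 360 with lists of 8407 summits. Without single libraries they ranged from 1779 to 2953 and from 1535 to 1972. When all regions of at least 3 libraries were tested, with missing ranks set past the end, 7218 and 7581 were called. That set includes the osteoblast-only and chondrocyte-only regions, whose direction is fixed by the rule that defined them. Windows higher in head osteoblasts and head chondrocytes numbered 288 and 304 at 500 kb, 291 and 323 with lists of 8407 summits, and 897 and 923 with one variance trend for every window, an alternative chosen after seeing the data. Windows higher in head chondrocytes numbered 828 without a filter and 283 with full lists and list length as a covariate, which changes both at once. Without single libraries windows ranged from 323 to 448 and from 306 to 560, chromosomes from 5 to 7 and from 4 to 7, and shifted summits from 53 to 219. Shifted summits numbered 65 with lists of 8407 summits, and no chromosome (0) was called with full lists. One named window, chromosome 22 from 21800001 to 21900000, changed direction with lists of 8407 summits (log2 difference 0.28). The causes were not tested.

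Replicate numbers of the titles gave no clear sign of paired libraries: deviations in log2 rank correlated at -0.141, 0.022 and 0.182. These values do not settle whether libraries were paired. With the title numbers as a replicate block, limma called 2841 shared regions of higher rank in head osteoblasts and 1945 in head chondrocytes. With that block it called 223 and 249 windows and 0 shifted summits, with 936 at an unadjusted p below 0.05. With the numbers in the peak names as the block, chosen after seeing the data, it called 347 windows higher in head osteoblasts and 1691 shared regions of higher rank there.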
